A study of Arabidopsis thaliana with 75 samples.

Results

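The 200 genes described here had the highest deposited share of uncapped RNA in untreated Col-0 seedlings of Arabidopsis thaliana. They are the 200 highest of 11922 nuclear loci that had a mean of at least 10 counts per 1000000 (CPM) in mRNA of those seedlings and a deposited value. The members were selected on this deposited value alone, the log2 of uncapped over total RNA, with 1 value per group, once past the mRNA minimum. It ran from 2.62 to 6.64 in the 200 members, with a median of 3.06 against −0.34 over all eligible loci. A further 364 loci passed the CPM minimum without a deposited value and could not enter.

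The study measured mRNA, uncapped RNA and sites of N6-methyladenosine (m6A) in 3 genotypes: Col-0, the mta line of the methyltransferase subunit MTA, and 35SALKBH10B, which overexpresses the m6A demethylase ALKBH10B from the 35S promoter. Seedlings were 14 days old and were either untreated or given flg22 at 1 µM for 4 h. This peptide of bacterial flagellin starts pattern-triggered immunity. Leaves of Col-0 and mta, from plants 4 weeks old, form groups called 00 and 24, because their titles name Pst while their treatment labels name flg22. Groups hold 3 libraries, except 2 m6A libraries in untreated Col-0 seedlings. mRNA of 35SALKBH10B seedlings and m6A of mta leaves at 24 are not analysed here. Names of untreated seedlings give 4 h for mRNA and 0 h for uncapped RNA and m6A, so the change with flg22 in the latter may include 4 h of time. Whether the replicates came from separate cultures is not stated, so p-values measure the spread between libraries. In these bulk samples, fewer cells of a type and less RNA per cell cannot be told apart.

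Most mRNAs carry a cap at the 5′ end that protects them from exonucleases. Removal of the cap by the decapping complex exposes a 5′ phosphate, and the cytoplasmic exonuclease XRN4 then degrades the body of the transcript. Uncapped ends also arise where a microRNA guides ARGONAUTE1 to cut a target inside its sequence. GMUCT, a sequencing method for uncapped or cleaved transcripts, ligates an adaptor to such 5′ ends in poly(A) RNA, so it counts decay intermediates that still hold a poly(A) tail. A high ratio of GMUCT to mRNA can reflect frequent decapping, slow removal of the intermediates or cleavage, and the ratio alone does not separate them.

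Seedling mRNA libraries held 9442047 to 13222937 counts in gene loci, leaf libraries 20467621 to 44052628 counts, and GMUCT libraries 3107893 to 41465534 recovered reads. The targeted genes were read in GMUCT: ALKBH10B stood at 409.8 to 685 RPM in 35SALKBH10B against 36.0 to 112 in the other genotypes, and MTA at 5.23 to 10.02 RPM in mta against 9.53 to 23.8 in Col-0, ranges that overlap. MTA is listed at 0 in every seedling mRNA library of both genotypes, so the mRNA does not check the mta label, and the labels do not say how that line was made. Among 5 green tissue markers, RBCS1A stood at 3840 to 9157 CPM in seedlings and LHCB1.1 and CAB3 were at 0 counts in every mRNA library. Summed markers of green tissue reached 4991 to 11742 CPM in seedlings and 16646 to 51083 in leaves. Summed guard cell markers were at 14.4 to 36.6 CPM in seedlings, root markers at 1.72 to 11.9 and seed markers at 0 to 5.43. Of the 3 GMUCT libraries of 35SALKBH10B with flg22, replicate 3 stood apart: its median member lay 0.18 below the untreated mean on the log2(RPM + 1) scale, against 0.92 and 0.68 for replicates 1 and 2. In leaves, replicate 1 of mta at 00 stood apart from the other mta libraries at 00. It was higher in several members that are named with their values, and lower in TCH4, CRR1, AT3G23450 and AT1G33760.

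The members were of ordinary length, and few were RNAs without a protein. Their median gene span was 2576.5 bases (introns included) against 2604 over eligible loci, and 98.0% were protein coding against 99.1%. The remaining 4 loci comprised 1 snoRNA, 1 rRNA, 1 lncRNA and 1 ncRNA locus. A gene on the other strand overlapped 23% of members and 32.0% of eligible loci. Neither mRNA level nor leaf level set them apart by much: the median was 24.6 CPM in untreated Col-0 seedlings against 33.4, and 22.6 against 22.3 in Col-0 leaves at 00. The rule used the mRNA of untreated Col-0 seedlings too, for the minimum of 10 CPM. In GMUCT, which the rule also used, the medians were 257 and 29.4 reads per 1000000 (RPM). Over chromosomes 1 to 5 the members numbered 55, 28, 43, 30 and 44, which is 27.5, 14, 21.5, 15 and 22% against 26.2, 15.1, 20.0, 15.3 and 23.3% of eligible loci.

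Words for transcription factors or DNA-binding proteins matched the names of 9 members, 4.5% against 1.38% of eligible loci. These were MYB70, RAP2.4, HB16, HB6, HB5, MYB3, KNAT3, MYB73 and GATA1. Ubiquitin or F-box words matched 2 members (1.0% against 0.96%), ribosomal proteins 1 (0.5% against 0.52%) and heat shock proteins or chaperones 1 (0.5% against 0.39%). Zinc finger, RNA-binding, histone, and chlorophyll or photosystem words matched 0 members, against 0.31, 0.18, 0.39 and 0.55% of eligible loci. Only 90 members have a named symbol, so these classes cover part of the set. The words also missed the named member TOE2, a transcription factor, so the shares count matching names and not all genes of a class.

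The listed genes of the decay pathway were not among the members. Of 18 genes for decapping and 5′ to 3′ decay, all were eligible and 0 were members. Their median uncapped share was −0.02, from −2.01 in XRN3, a nuclear exonuclease, to 1.35 in DCP2, the decapping enzyme. XRN4 stood at 0.28. The list held LSM1A and LSM1B but not LSM3A, which was a member at 2.80. Of 75 listed microRNA targets 44 were eligible, with a median of −0.16 and a range of −2.31 to 3.11. One of them, TOE2, a transcription factor of the AP2 type targeted by miR172, was a member, while 26 lay above the eligible median. Among 8 loci that make or are targets of trans-acting siRNAs, 6 were eligible, all above the eligible median (0.26 to 3.48), and TAS1A was a member. None of 15 RNA-binding protein genes with an unproductive splice form was a member, although RS31A came close at 2.55. The 1 eligible gene of 11 with a conserved upstream reading frame stood at 0.91.

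The locus with the highest value, 6.64, was AT2G05765, a snoRNA locus on chromosome 2 (TAIR10, 2183961 to 2185234, minus strand). Its GMUCT level was 369.8, 209.8 and 332 RPM in untreated Col-0 and 219.8, 224 and 257 in untreated mta. With flg22 in mta it was at 92.3, 97.7 and 106 RPM, below each untreated library (log2 fold change −1.23 ± 0.31 SE, limma adjusted p = 0.0078). Its own ratio of mean RPM to mean CPM gave 4.57, which is 2.06 lower than the deposited value.

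MORF4 (chromosome 5, 18067925 to 18070928) ranked next at 5.69. It is named as a multiple organellar RNA editing factor. A gene on the other strand overlaps 49.3% of it, and reads of the pair may be mixed. GMUCT of MORF4 was 326, 666 and 469 RPM in untreated Col-0, and 326, 427 and 483 in untreated mta. With flg22 it was 134, 126 and 126 RPM in mta, a fall of 1.65 ± 0.39 on the log2 scale (limma adjusted p = 0.0052). Its mRNA fell less, from 17.6, 13.6 and 15.7 to 6.57, 6.59 and 8.49 CPM (−0.90 ± 0.20, edgeR adjusted p = 0.00035).

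SDN3, a nuclease that degrades small RNAs, stood at 4.84 (chromosome 5, 26824236 to 26828318). In untreated mta its uncapped reads were at 988, 1052 and 1114 RPM, and with flg22 at 413, 369.7 and 327. All flg22 libraries lay below all untreated ones, a change of −1.51 ± 0.34 (limma adjusted p = 0.0038). In 35SALKBH10B it went from 1153, 1437 and 1735 to 246, 327 and 1010.4 RPM (−1.71 ± 0.34, limma adjusted p = 0.0033), with the highest flg22 value in replicate 3. Its mRNA changed by −0.40 ± 0.14 in mta (edgeR adjusted p = 0.022).

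TCH4 (XTH22), a xyloglucan endotransglucosylase that modifies the cell wall, with a deposited share of 4.26, lies on chromosome 5 (23307006 to 23308680). Untreated Col-0 held 4499.7, 8067 and 6104 RPM and untreated mta 4853, 4829 and 7011. With flg22 the mta libraries held 2043, 2373 and 2042 RPM (−1.35 ± 0.31, limma adjusted p = 0.0048). In 35SALKBH10B the flg22 libraries (6525, 10473 and 4317 RPM) overlapped the untreated ones (5792, 7933 and 7909), with a change of −0.10 ± 0.31 (limma adjusted p = 0.84). The difference between these changes, 1.25 ± 0.44, did not pass (limma adjusted p = 0.22).

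CRR1, named for chlororespiration reduction and needed for the chloroplast NDH complex, had a share of 4.30 (chromosome 5, 21170048 to 21172346). A gene on the other strand covers nearly all of it, so its mRNA counts may belong to either gene. AT4G32930 (5.25), MGP3 (5.0), named for a defect of the male gametophyte, PMD1 (4.53), a factor of peroxisome and mitochondrion division, and AT3G23450 (5.25) complete the group of loci whose high ratio appears in their own RPM and CPM. AT4G32930 reached 1089, 2229 and 1316 RPM in untreated Col-0 beside 40.5, 50.6 and 45.5 CPM of mRNA. MGP3 reached 1062, 977 and 1338 RPM beside 34.3, 33.2 and 33.3 CPM.

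AT4G04760 (chromosome 4, 2423814 to 2428157) was the exception among the 10 highest. Its deposited value was 4.45, yet its GMUCT level in untreated Col-0 was 0.675, 0 and 0.716 RPM beside 12.8, 14.7 and 13.5 CPM of mRNA, for a ratio of −4.88. It is the member that did not pass the GMUCT filter. In all, 7 members (3.5%, against 2.16% of eligible loci) had an own ratio more than 1 away from the deposited value. Besides AT2G05765 and AT4G04760 these were AT1G15175 (2.98 against −0.75), AT1G03620 (3.88 against 0.42), CFM3B (3.88 against 1.89), AT5G39600 (2.72 against 1.12) and the rRNA locus AT3G41979 (3.33 against 4.68). A gene on the other strand overlaps 5 of these 7. When loci were ranked by their own ratio, 161 members were in the top 200, and 108 when the ratio was divided by gene length.

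At the limit of the list, UBP21, a ubiquitin-specific protease, and the transcription factor gene GATA1 were the last members at 2.62. AT1G48100 at 2.62 and the actin gene ACT12 at 2.61 were the first loci outside. The own ratio of ACT12 was −7.71, so a deposited value near the limit did not always match the deposited reads.

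The high uncapped share was shared by the other seedling groups. In mta untreated, the deposited values of the members had a median of 3.02 against −0.50 over eligible loci, and 153 members (76.5% of each list of 200) were also in that group's 200 highest. In 35SALKBH10B untreated the median was 2.96 against −0.62, and 132 members (66.0%) were in the 200 highest. With flg22 the medians were 2.68 in Col-0, 2.54 in mta and 2.71 in 35SALKBH10B, against −0.50, −0.41 and −0.44, with 146, 141 and 125 members in the respective 200 highest. In the top 1000 of each group there were 198 members in Col-0 with flg22, 200 in untreated mta, 197 in mta with flg22, 195 in untreated 35SALKBH10B and 198 in 35SALKBH10B with flg22. Some 90 members were in the 200 highest of all 5 other groups and 23 in none of them. These are single values per group, so they are given without a test.

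**Figure D1:**
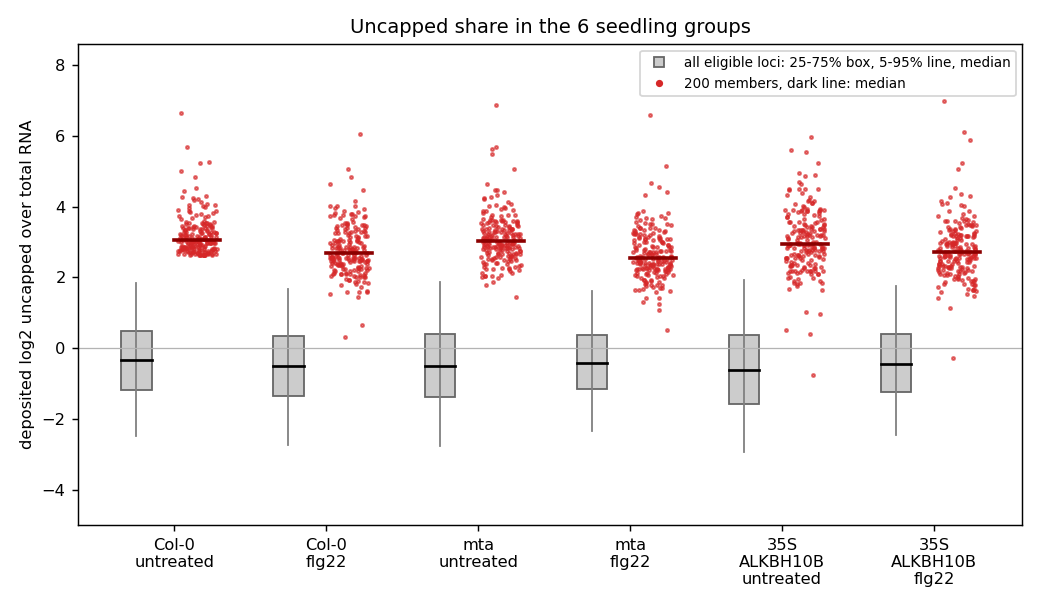
Deposited log2 uncapped over total RNA (vertical axis) in the 6 seedling groups, with the 200 members as red points beside grey boxes for all 11922 eligible loci (25 to 75% of loci, line from 5 to 95%, black bar at the median). The members' median stays between 2.54 and 3.06, while the eligible median stays between −0.62 and −0.34; 1 member falls below that of 35SALKBH10B untreated.

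The 5 members with the widest range were each highest in untreated Col-0, the group that chose them, and lowest in a group of 35SALKBH10B. AT4G04760 went from 4.45 in untreated Col-0 to −0.75 in untreated 35SALKBH10B. TAS1A, the precursor of trans-acting siRNAs that miR173 cuts, stood at 3.48 in untreated Col-0 and 3.35 in untreated mta. In 35SALKBH10B it stood at 0.52 untreated and 1.54 with flg22. AT1G56660 ranged from 4.24 in untreated Col-0 to 1.84 in untreated 35SALKBH10B, and AT4G18670 from 2.73 to 0.41 between the same groups. CYP705A15 ranged from 3.43 in untreated Col-0 to 1.41 in 35SALKBH10B with flg22.

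The GMUCT level of TAS1A (chromosome 2, 11721539 to 11722468) was 149.5, 102 and 179 RPM in untreated Col-0, and 31.2, 16.0 and 20.4 RPM in untreated 35SALKBH10B. These values are a description, since untreated Col-0 chose the member. With flg22 it was 39.4, 83.0 and 46.4 RPM in Col-0 against 24.8, 11.4 and 31.4 in 35SALKBH10B, where the groups did not overlap (−1.32 ± 0.34, limma adjusted p = 0.0062). In untreated seedlings TOE2 had 128, 162 and 106 RPM in Col-0, and a mean of 170.3 ± 30.9 (SD, n = 3) in 35SALKBH10B. Under flg22 TOE2 was higher in 35SALKBH10B (79.4, 113 and 163 RPM) than in Col-0 (44.2, 61.3 and 70.5), by 0.96 ± 0.24 (limma adjusted p = 0.0048).

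Uncapped RNA of the members fell with flg22 in mta seedlings, in libraries that took no part in choosing them. Of 199 members tested on log2(RPM + 1), 83 fell and 4 rose, while 112 did not pass (limma, adjusted p under 0.05). Thus 43.7% of members passed, where 22.5% of all tested genes did, 16.0% down and 6.43% up. The median change was −0.63, against −0.20 over all genes tested, and 169 of 199 members lay below that all-gene median. Among those that passed, 50 members (25.1%) fell and 1 rose at least 2-fold, where 8.38% of all genes fell and 3.61% rose by as much. Members were chosen for high GMUCT without flg22, so part of this direction may follow from the choice of condition, which was not tested. As a description, among loci with at least 100 RPM in untreated Col-0, a floor on values that the rule used and not a match of levels, 39.8% of 176 members and 27.9% of 1873 other eligible loci fell. With edgeR on the recovered reads, which centres all genes near −0.03, 54 members fell and 4 rose (29.0% of 200), with a median of −0.43, while 2251 of all 20579 genes fell and 2310 rose. Without flg22 replicate 1 or without untreated replicate 3, 28.6% of members passed in either case. Green tissue markers fell beside them in mRNA of mta (3 of the 3 tested), as did 2 of 3 root markers, and in GMUCT 2 of 5 green tissue markers fell. The seed marker tested rose in mRNA (log2 change 4.89) and in GMUCT (1.33), and no guard cell marker of 3 passed in either. Their part in the result was not tested.

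In 35SALKBH10B the members changed in the same direction, with less even replicates. With flg22, 79 of 199 members fell and 1 rose, with a median of −0.60 against −0.10 over all genes. The 40.2% of members that passed stand beside 21.1% of all tested genes, of which 11.1% fell and 10% rose. This count rests on single libraries: 69.3% passed without flg22 replicate 3, the library that stands apart, but 10.1% without flg22 replicate 1, 14.1% without flg22 replicate 2, and 22.1% and 16.6% without untreated replicates 2 and 3. In each of these settings far more members fell than rose (19 to 128 against 1 to 10). With edgeR on reads, 51 members fell and 4 rose, while of all genes 1324 fell and 2672 rose. GMUCT of 4 of 5 green tissue markers and of 2 of 3 guard cell markers (median −0.93) fell as well, and their part was not tested. The mta and 35SALKBH10B changes share no library, and 48 members fell in both, which is 57.8% of those that fell in mta and 60.8% of those that fell in 35SALKBH10B. Over all genes 1192 fell in both, which is 38.5 and 55.6% of the respective lists. A difference between these changes passed for 1 of 199 members (0.503%, against 1.03% of all genes, 0.814% up), AGC2-1.

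**Figure D2:**
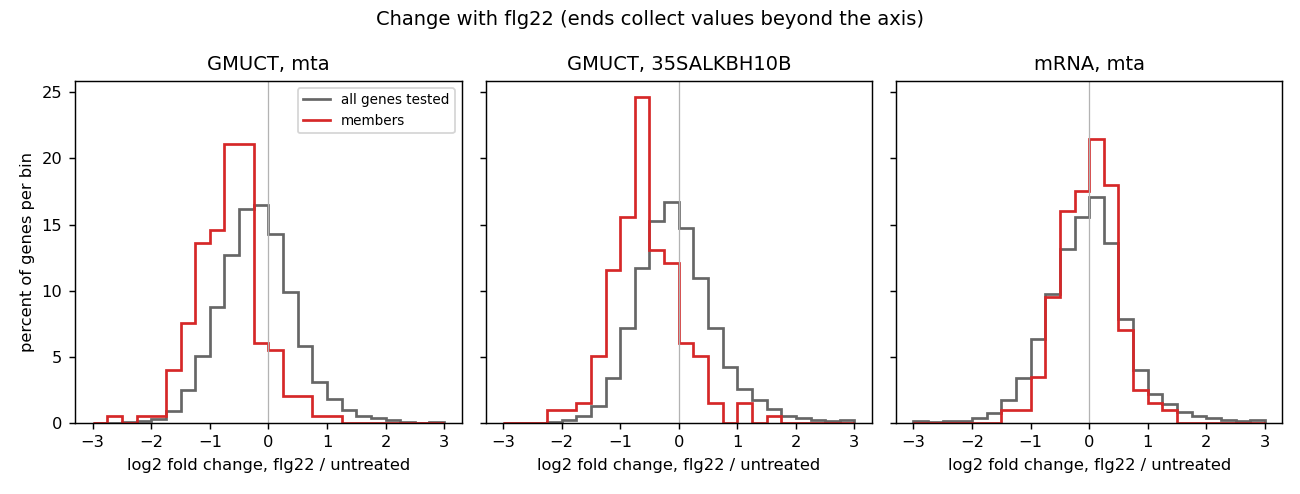
Distribution of log2 fold changes, flg22 over untreated, in bins of 0.25 (horizontal axis), as percent of genes (vertical axis), for members (red) and all genes tested (grey). GMUCT of members is shifted down in mta (median −0.63 against −0.20) and in 35SALKBH10B (−0.60 against −0.10), and mRNA of mta is not (0.02 against −0.02).

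The members with the lowest GMUCT change in mta were CRR1 and PTAC12. CRR1 went from 314, 388 and 565 RPM to 76.8, 62.0 and 74.8 RPM with flg22, a change of −2.51 ± 0.39 (limma adjusted p = 0.00029). PTAC12 (HEMERA), a protein of plastid transcription and light signalling (chromosome 2, 14581835 to 14584797), went from 222, 229 and 226 to 51.7, 54.8 and 57.7 RPM (−2.02 ± 0.32, limma adjusted p = 0.00029). Both sets of libraries are widely separated. In 35SALKBH10B CRR1 went from 162, 178 and 365 to 40.2, 32.5 and 107 RPM, again without overlap (−2.06 ± 0.39, limma adjusted p = 0.003). AT5G06980, the light and clock-regulated gene LNK4, fell there from 433, 401 and 559 to 80.7, 62.3 and 315 RPM (−1.97 ± 0.37, limma adjusted p = 0.0028). Its change in mta, −0.51 ± 0.37, did not pass (adjusted p = 0.33), and the difference between the lines did not pass either (−1.46 ± 0.52, adjusted p = 0.23). AT3G28540 went from 176, 222 and 243 RPM to 21.5, 31.1 and 170.3 in 35SALKBH10B (−2.10 ± 0.49, limma adjusted p = 0.0075). Without flg22 replicate 1 or 2 the adjusted p of AT3G28540 was 0.067 or 0.059.

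**Figure D3:**
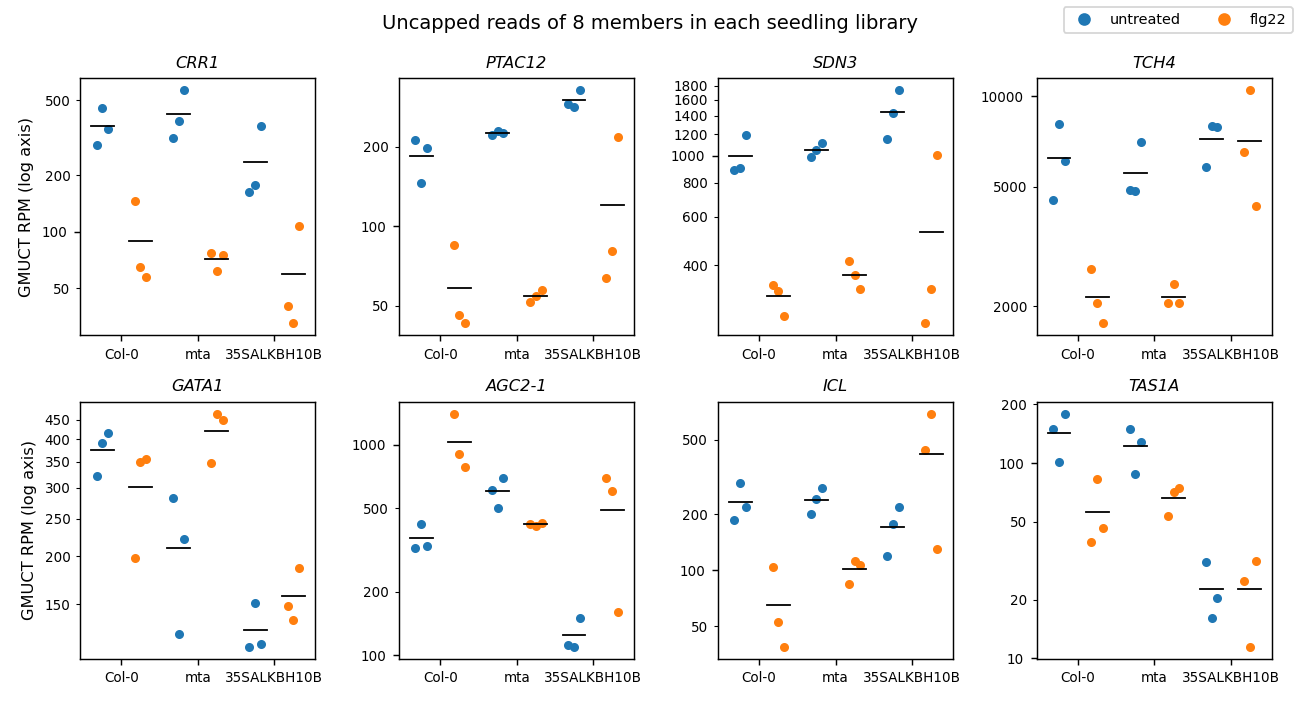
GMUCT level in RPM (vertical log axis, scaled per panel) of 8 members in each of 18 seedling libraries, untreated in blue and flg22 in orange, with black bars at the group mean. CRR1, PTAC12 and SDN3 drop with flg22 in each genotype, while 1 of the 3 orange points of 35SALKBH10B, replicate 3, often lies nearer to the untreated ones.

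A few members rose with flg22. GATA1 went from 282, 126 and 222 to 347, 466 and 449 RPM in mta (1.06 ± 0.26, limma adjusted p = 0.0076), and without untreated replicate 2, the lowest of these, its adjusted p was 0.063. AT5G03700 (chromosome 5, 965361 to 967432) went from 273, 217 and 279 to 443, 491 and 511 RPM (0.91 ± 0.24, limma adjusted p = 0.0096), with a highest adjusted p of 0.055 among the alternatives. AGC2-1 (OXI1), a kinase induced by oxidative signals (chromosome 3, 9195334 to 9197126), rose in 35SALKBH10B from 112, 109 and 151 to 699, 606 and 160.3 RPM (1.73 ± 0.37, limma adjusted p = 0.0048). The libraries do not overlap, but replicate 3 is close to the untreated level. In mta AGC2-1 was at 609, 502 and 695 RPM untreated and 422, 409 and 423 with flg22, a change of −0.51 ± 0.37 that did not pass (adjusted p = 0.33).

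mRNA of the members did not move together in the way GMUCT did. In mta, 51 members rose, 49 fell and 100 did not pass with flg22 (edgeR quasi-likelihood, adjusted p under 0.05). The 100 that passed (50%) compare with 42.2% of all tested genes (22% up and 20.2% down) and with 55.4% of eligible loci, which are the better match for expression. Their median change was 0.02 against −0.02 over all genes. Of the members that passed, at least 2-fold changes numbered 5 up and 4 down (2.5 and 2.0%, against 5.28 and 5.18% of all genes). Leaving out 1 library at a time gave 37.5 to 40.5% of members.

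AT5G03700 rose most clearly, from 46.2, 40.8 and 46.3 to 96.3, 92.5 and 93.4 CPM (1.30 ± 0.10, edgeR adjusted p = 3.4e-13). KUP10, a potassium transporter (chromosome 1, 11104237 to 11108095), went from 22, 23.9 and 21.1 to 50.1, 40.2 and 48.4 CPM (1.27 ± 0.13, edgeR adjusted p = 3.8e-10). Its GMUCT level did not pass (211, 262 and 316 to 237, 339.7 and 303 RPM, 0.16 ± 0.27, limma adjusted p = 0.71). PTAC12 mRNA went from 36.1, 31.2 and 28.3 to 11.8, 12.1 and 8.88 CPM (−1.33 ± 0.16, edgeR adjusted p = 7.1e-09), alongside its uncapped RNA. AT4G11320, the cysteine protease CP2 (chromosome 4, 6887166 to 6889879), fell from 61.8, 57.5 and 62.8 to 20.8, 22.9 and 19.2 CPM (−1.32 ± 0.13, edgeR adjusted p = 3.6e-11). In each of these 4 genes the mRNA libraries of the treatments did not overlap.

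Across the 199 members with both measures in mta, the GMUCT change was lower than the mRNA change in 192, on scales that are centred differently. Untreated libraries are named 0 h for GMUCT and 4 h for mRNA. Differences between the measures, also in the model below, may thus include 4 h of time in GMUCT only. Over all 17650 genes with both it was lower in 64.8%. Of the 83 members whose GMUCT fell, mRNA fell in 41, rose in 4 and did not pass in 38. Of the 51 whose mRNA rose, GMUCT rose in 4 and fell in 4. The same cross-counts were not made over all genes, so they describe the members without showing a trait particular to them. In a single model of both kinds of library, the change of uncapped RNA relative to mRNA had a median of −0.46 against 0.03 over all genes. Of 199 members, 184 lay below that all-gene median. Members were chosen for a high ratio of this kind in untreated Col-0. Part of this direction may follow from that choice, which was not tested. Single genes rarely passed: 6 members fell and 0 rose (3.02%, against 0.426% of all tested genes, 0.184% down), by limma at an adjusted p under 0.05. CRR1 (−1.76 ± 0.34, limma adjusted p = 0.015) and PBS1 (−1.0 ± 0.20, limma adjusted p = 0.026) were among them. The share was 3.52% without GMUCT replicate 1 of untreated mta, and 0.50 to 2.01% without any 1 of the other 11 mta libraries. A pseudocount of 5 gave 0 up and 20 down (10.1%).

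**Figure D4:**
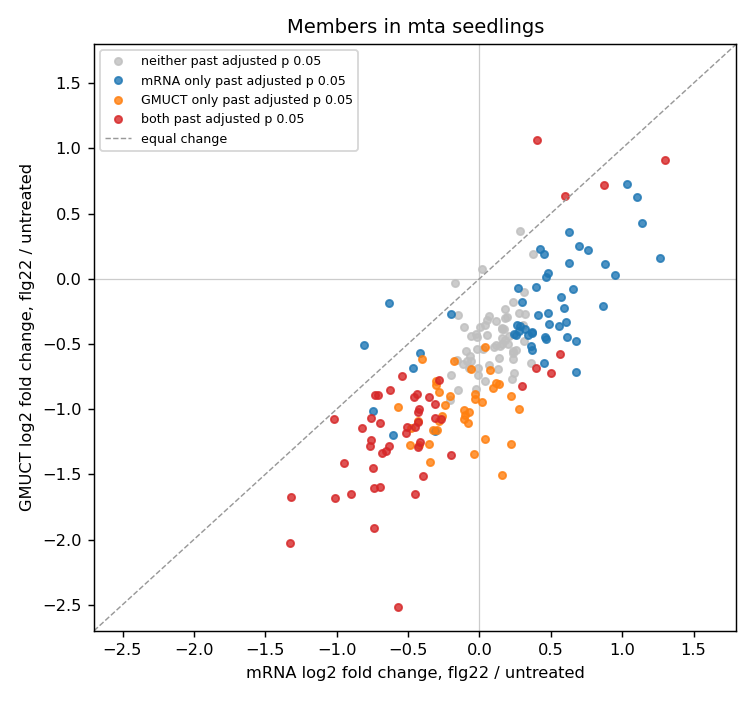
Log2 fold change with flg22 in mta of mRNA (horizontal axis) and GMUCT (vertical axis) for 199 members, coloured by which of the tests passed an adjusted p of 0.05. The points form a band below the dashed line of equal change: 192 of 199 have the lower GMUCT change, against 64.8% of all genes. Members were chosen for a high uncapped share in untreated Col-0, and the part of that choice was not tested. Untreated libraries are named 0 h for GMUCT and 4 h for mRNA, so the vertical axis alone may include 4 h of time.

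The listed genes of RNA decay and cleavage are given beside the 22.5% of all genes that passed in GMUCT with flg22 in mta. There 1 of 18 decapping and decay genes rose and 0 fell, with a median change of −0.07. That gene was DCP1, an activator of decapping, at 0.60 ± 0.21 (limma adjusted p = 0.046), while its mRNA fell by 0.60 (SE 0.07, edgeR adjusted p = 1.9e-08). Among 69 microRNA targets 3 rose and 8 fell, among 8 trans-acting siRNA loci 0 rose and 2 fell, and among 15 RNA-binding protein genes 0 rose and 3 fell. mRNA of the exonuclease XRN4 rose by 0.25 ± 0.09 (edgeR adjusted p = 0.028), and 3 of 18 decay genes rose and 2 fell. DCP1 and XRN4 were picked after their values were seen. TAS1A changed by −0.85 ± 0.34 in mta, which did not pass (limma adjusted p = 0.073).

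Contrasts that include untreated Col-0 seedlings used the libraries that chose the members and are given as description. GMUCT of Col-0 fell in 109 members and rose in 12 with flg22 (60.8%, beside 50.6% of all genes), with 40.1% of all genes down and medians of −0.76 and −0.48. Between untreated mta and Col-0 3 members were higher and 7 lower (5.03% beside 4.09%, 2.31% up), and between untreated 35SALKBH10B and Col-0 17 and 19 (18.1% beside 12.6%, 3.4% up). Seedling mRNA with flg22 in Col-0 gave 64 up and 72 down (68.0% beside 58.7%, 30.7% down, and 70.3% of eligible loci). Untreated mta against Col-0 gave 42 and 46 (44.0% beside 33.1%, and 44.2% of eligible loci). Uncapped relative to mRNA gave 1 up and 4 down with flg22 in Col-0 (beside 0.938% of all genes), and 2 and 1 between untreated mta and Col-0 (beside 0.731%).

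Under flg22, mRNA of the members differed between mta and Col-0 about as often as that of eligible loci. In mta 56 were higher and 46 lower, 51.0% against 38.0% of all genes (18.1% up and 19.9% down) and 49.0% of eligible loci. Without Col-0 replicate 1 or 3 the split turned to 40 higher and 47 lower. Of the markers, 2 of 3 for green tissue were higher and 1 lower, and the seed marker was lower (−1.86), whose part was not tested. AT3G28540 was at 14.2, 14.3 and 11.3 CPM in mta and at 1.29, 4.59 and 1.68 in Col-0 (2.28 ± 0.26, edgeR adjusted p = 5.8e-09). AT1G17360 stood at 13.7, 12.7 and 15.9 CPM in mta against 2.19, 6.02 and 1.78 in Col-0 (1.95 ± 0.28, edgeR adjusted p = 5.5e-07). In both genes replicate 2 of Col-0 is the highest of its group, and the groups do not overlap. RUB1, a ubiquitin-like modifier, was lower in mta, at 69.8, 67.6 and 53.3 against 116, 143 and 138 CPM (−1.21 ± 0.10, edgeR adjusted p = 2.5e-12). AT3G23450 was lower as well, at 5.30, 4.89 and 4.44 against 11.8, 13.9 and 10.9 CPM (−1.47 ± 0.20, edgeR adjusted p = 1.4e-07).

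GMUCT under flg22 gave few differences between mta and Col-0: 1 member was higher and 5 were lower (3.02%, against 2.88% of all genes, 2.41% up and 0.477% down; limma). AT1G29418, a locus with no named symbol (chromosome 1, 10300631 to 10301302), was higher in mta at 67.6, 115 and 93.5 RPM against 21, 26.5 and 38.2 (1.66 ± 0.33, limma adjusted p = 0.0086). RABA1b, a small GTPase of exocytic trafficking, was lower at 86.7, 98.0 and 103 against 481, 176 and 167 RPM (−1.33 ± 0.33, limma adjusted p = 0.03), where replicate 1 of Col-0 is far above the others. PBS1, the kinase cleaved by the bacterial protease AvrPphB, was lower at 315, 241 and 208 against 640.4, 475 and 469 RPM (−1.06 ± 0.20, limma adjusted p = 0.0055). AT4G11320 was lower at 123, 113 and 125 against 326, 263 and 246 RPM (−1.19 ± 0.24, limma adjusted p = 0.0085). The count was 0 up and 1 down without Col-0 replicate 1, mta replicate 2 or mta replicate 3, 1 up and 3 down without mta replicate 1, and 1 up and 11 down with edgeR on reads, which gave 302 up and 325 down over all genes. RABA1b lost its call in 5 of the alternatives, AT1G29418 in 3, AT4G11320 in 2 and PBS1 in 1. Part of the lower values in mta may follow from choosing the members in untreated Col-0, which was not tested.

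Relative to mRNA, 2 members were higher and 16 lower in mta than in Col-0 under flg22 (9.05%, against 3.72% of all genes, 1.93% up and 1.79% down; limma). The median difference was −0.24 for members against 0.02 over all genes. Choosing the members for a high ratio of this kind in untreated Col-0 may give part of this direction, which was not tested. LINC3 (CRWN3), a protein of the nuclear periphery, had 24.1, 23.3 and 24.3 CPM of mRNA in mta against 4.54, 9.18 and 4.49 in Col-0. Its GMUCT level was alike, at 117, 131 and 127 against 167, 133 and 109 RPM, for a relative change of −1.99 ± 0.28 (limma adjusted p = 0.00081). AT5G40340 (−1.83 ± 0.35, limma adjusted p = 0.0058) and AT1G17360 (−1.71 ± 0.36, limma adjusted p = 0.0099) were lower in the same way, with mRNA higher in mta and GMUCT ranges that overlap. For AT5G40340 mRNA was at 29.4, 28.2 and 25.6 CPM in mta against 6.28, 11.8 and 5.43. AT4G16500, the phytocystatin CYS4, was higher (0.88 ± 0.16, limma adjusted p = 0.0039), with 139.7, 155 and 118 against 215, 218 and 256 CPM and overlapping GMUCT of 1229, 1362 and 1507 against 1146, 1284 and 1269.7 RPM. Of all members 17.6% passed without Col-0 mRNA replicate 2, 15.6% without Col-0 GMUCT replicate 3, and 3.02% without Col-0 mRNA replicate 3. Without Col-0 GMUCT replicate 1, mta GMUCT replicate 2 or 3, Col-0 mRNA replicate 1 or any mta mRNA replicate, 3.52 to 5.53% passed.

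Between 35SALKBH10B and Col-0 under flg22, GMUCT of 39 members was higher and of 28 lower (33.7%, against 29.1% of all genes, 20.6% up and 8.5% down; limma). The split depends on the scaling: on recovered reads with edgeR it was 24 up and 44 down (2995 and 2749 of all genes), and without the filter 25 up and 24 down. Without replicate 3 of 35SALKBH10B it was 30 up and 41 down, and without replicate 3 of Col-0 22 up and 26 down. Among markers, 4 of 5 for green tissue (median 1.08) and the root marker (1.91) were higher and the seed marker (−2.16) was lower, whose part was not tested. The medians were 0.22 for members and 0.24 for all genes. The choice of members in untreated Col-0 may also bear on the split, which was not tested. ICL, isocitrate lyase of the glyoxylate cycle that turns seed lipid into sugar, was at 440.5, 688 and 129 against 104, 52.9 and 38.7 RPM (2.49 ± 0.42, limma adjusted p = 0.00026). AT1G29418 was at 63.8, 70.1 and 207 against 21, 26.5 and 38.2 RPM (1.78 ± 0.33, limma adjusted p = 0.00057). AT1G49000 was lower at 200.5, 224 and 90.7 against 1158, 987 and 911 RPM (−2.66 ± 0.32, limma adjusted p = 7.8e-06), and AT5G03700 at 203, 252 and 235 against 1155, 804 and 815 RPM (−1.99 ± 0.24, limma adjusted p = 7.1e-06). No library of 35SALKBH10B overlapped Col-0 in these 4 genes.

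In leaves, 198 members were tested, since ICL and the rRNA locus AT3G41979 had too few counts. Between 24 and 00 in Col-0, 73 rose and 72 fell, 73.2% against 68.3% of all genes (35.6% up and 32.7% down; edgeR), and of these 29 rose and 30 fell at least 2-fold (14.6 and 15.2%, against 20.8 and 18.0% of all genes). In mta 47 rose and 75 fell, 61.6% against 59.0% (30.9% up and 28.1% down). The total shares lie near those of all genes, and so do both directions in Col-0. In mta 37.9% of members fell and 23.7% rose, against 28.5 and 34.4% of eligible loci. More members fell than rose there under every alternative, with 34.8 to 43.0% of the calls up. Green tissue markers fell as well, 3 of 3 in Col-0 (median −0.55) and 2 of 3 in mta (−0.73), with 1 of 3 guard cell markers up and 1 down in each, and their part was not tested.

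The members that changed most in leaves moved by large factors. CML41, a calmodulin-like protein, rose in Col-0 from 0.875, 0.370 and 0.571 to 178, 123 and 132 CPM (7.84 ± 0.54, edgeR adjusted p = 2.6e-07). In mta CML41 went from 6.13, 1.22 and 1.83 to 251, 229 and 171 CPM. AT3G28580 (chromosome 3, 10715597 to 10717393) rose in Col-0 from 0.189, 0.142 and 0.130 to 107, 62.2 and 74.9 CPM (8.96 ± 0.80, edgeR adjusted p = 1.7e-06). In mta it went from 4.6, 0.228 and 0.955 to 97.0, 62.4 and 57.9, and replicate 1 at 00 is the highest of its group for both genes. Levels at 00 in Col-0 rest on few reads, so the size of these folds is uncertain.

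TCH4 fell in Col-0 leaves from 658, 1161 and 1094 to 13.4, 17.8 and 9.50 CPM (−6.21 ± 0.38, edgeR adjusted p = 1.1e-07). In mta the range was narrower, from 332, 601 and 601 to 32.1, 35.3 and 37.5 CPM (−3.93 ± 0.34, edgeR adjusted p = 3.5e-06). The fall of TCH4 was thus 2.28 ± 0.44 smaller in mta on the log2 scale (edgeR adjusted p = 0.01). AT1G33760 fell from 6.55, 11 and 12 to 0.0993, 0.134 and 0.0581 CPM in Col-0 (−6.64 ± 0.45, edgeR adjusted p = 2.4e-07). In mta it fell from 1.53, 3.42 and 2.37 to 0.195, 0.303 and 0.25 CPM. CRR1 fell from 78.9, 87.4 and 80.8 to 5.23, 12.6 and 8.42 CPM in Col-0 and from 48.6, 64.2 and 64.2 to 14.2, 17.4 and 18.8 in mta, and no library at 24 reached those at 00. AT3G23450 fell from 125, 111 and 87.1 to 5.96, 14.2 and 9.50 CPM in Col-0 and from 27.3, 43.5 and 45.9 to 11.6, 17.8 and 16.1 in mta.

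Between the genotypes in leaves, 46 members were higher and 27 lower in mta at 00 (36.9%, against 28.7% of all genes, 15.5% up and 13.3% down; edgeR). This split was 49 and 41 with the replicate block, 47 and 36 with DESeq2, 34 and 28 without Col-0 replicate 1, and 33 and 16 without Col-0 replicate 2. Of the markers, 1 of 3 for green tissue, 2 of 3 for guard cells and the seed marker (2.69) were higher in mta, and their part was not tested. At 24, 30 were higher and 44 lower (37.4%, against 28.7%, 14.5% up and 14.2% down). The latter count fell to 19.7% without Col-0 replicate 3 and to 22.7% without mta replicate 2. Of eligible loci 32.0% passed at 00 and 31.9% at 24. The change by 24 differed between the genotypes in 24 members, 8 with a higher and 16 with a lower value in mta (12.1%, against 9.74% of all genes, 4.77% up and 4.97% down).

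The members carried m6A peaks at least as often as other eligible loci in the seedling libraries. Peaks are the authors' own calls per library, and a locus counts as having one where a summit lies in it. Among the 2 untreated Col-0 libraries, 90.0 and 85.5% of members had a peak, against 81.8 and 76.3% of eligible loci. In untreated mta the members reached 85.0, 85.0 and 90.0% against 77.6 to 80.2%, and in untreated 35SALKBH10B 78.5 to 90.0% against 71.9 to 84.1%. With flg22 the shares were 69.5 to 82.0% in Col-0, 67.0 to 78.5% in mta and 74.5 to 82.0% in 35SALKBH10B, each above the eligible share of the same library. In leaves the members (52.0 to 71.5%) and eligible loci (44.3 to 71.1%) lay on either side of each other. The lists of seedlings and leaves were called at different thresholds and are not compared.

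**Figure D5:**
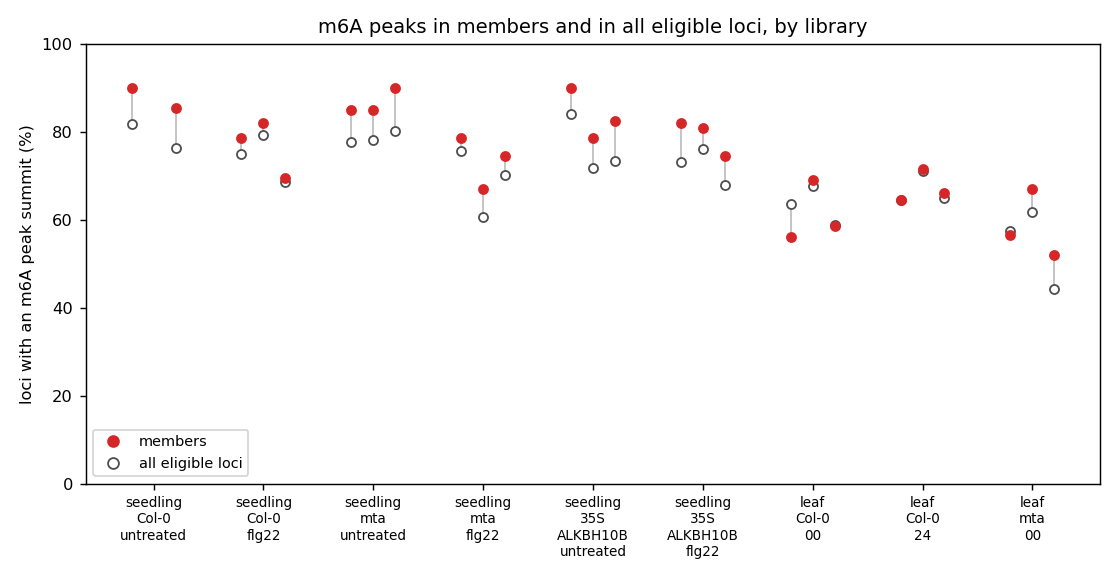
Percent of loci with an m6A peak summit (vertical axis) in each of 26 libraries by group, for the 200 members (red) and all 11922 eligible loci (open circles), joined per library. The red points lie above the open ones in all 17 seedling libraries, by more in untreated groups, and on both sides of them in leaves.

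A peak in every library of a group was found for 169 members in untreated Col-0 (84.5%, against 74.0% of eligible loci), 160 in untreated mta (80.0%, against 71.8%) and 152 in untreated 35SALKBH10B (76.0%, against 67.2%). With flg22 the numbers were 133 (66.5%, against 65.9%), 129 (64.5%, against 58.5%) and 143 (71.5%, against 64.1%). Over all 17 seedling libraries 112 members had a peak in each (56.0%, against 47.1%) and 8 in none (4.0%, against 6.7%). Those 8 include AT2G05765, AT4G04760, AT1G29418 and UBP21. Fewer member summits lay in the last 20% of the gene: 41.5 and 39.9% in untreated Col-0, against 48.6 and 47.4% of eligible loci, and 32.7 to 36.0% in untreated mta, against 36.1 to 38.5%. No test was made over the members, and 3 libraries a group cannot reach 0.05 by an exact test.

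Among the 112 members with a peak in every seedling library, the strongest peaks belonged to AT3G23450. Its mean fold enrichment, as given by the authors' peak caller, was 13.8 over 17 seedling libraries (9.20 to 19). AT3G50690 followed with 11.3 (7.71 to 16.0). HOS15, a WD40 protein of chromatin-based repression, and RCF1 (AT1G20920), an RNA helicase of the cold response, both stood at 11.2, and AT5G55660 at 10.6. AT3G23450 (−1.91 ± 0.45, limma adjusted p = 0.0055) and AT5G55660 (−0.92 ± 0.31, limma adjusted p = 0.037) fell in GMUCT with flg22 in mta but did not pass in 35SALKBH10B (−0.50 and −0.19, adjusted p of 0.45 and 0.69). None of AT3G50690, HOS15 and RCF1 passed in GMUCT with flg22 in mta or in 35SALKBH10B: in mta they changed by −0.30 ± 0.28, −0.10 ± 0.20 and −0.45 ± 0.29 (limma adjusted p of 0.45, 0.75 and 0.28). TCH4 had a peak in 17 of 17 seedling libraries with a mean fold of 4.10, MORF4 and TAS1A in 4, and TOE2 in 2 of 17 but in 8 of 9 leaf libraries. FIP37, a subunit of the m6A writer complex chosen here after its values were seen, had a peak in 17 of 17 seedling and 9 of 9 leaf libraries with a mean seedling fold of 8.05. Its GMUCT level in mta went from 221, 165 and 192 to 134, 138 and 127 RPM with flg22 (−0.52 ± 0.18, limma adjusted p = 0.045), and its mRNA stayed at 28.0, 27.0 and 25.8 against 27.1, 26.5 and 17.8 CPM (edgeR adjusted p = 0.88).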

How the data were processed

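Seedling mRNA (12 libraries), leaf mRNA (12), GMUCT (18) and m6A (26) were used. Per the file headers and the submitters' processing notes, the authors counted reads with featureCounts 2.0.1 in seedlings and used STAR, TAIR10 and MACS2, versions not given. mRNA files hold whole read counts deposited per feature, without strand separation in seedlings. CPM were scaled by the sum over 32844 gene loci of 62925 features. A further 12 count columns, not mapped to a group, were not used. GMUCT was deposited as RPM, and 100% of values were whole reads within 0.01. The deposited uncapped shares are log2 values by the authors, pooled per group. Peaks carry, as deposited, a fold ratio, −log10 p and −log10 q per library. Depth of m6A libraries is unknown.

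The members and lists were chosen with earlier results of these data known. mRNA was tested with edgeR 4.0.16 (R 4.3.3; quasi-likelihood, TMM, filterByExpr), GMUCT with limma 3.58.1 with trend on log2(RPM + 1) for genes with 1 RPM or more in at least 3 libraries, and uncapped relative to mRNA as an interaction in limma on log2(value + 1). This scale understates changes of low genes. SE of edgeR are the log2 change over the root of F. Benjamini-Hochberg adjustment ran over all genes. All groups of a tissue and assay shared 1 fit. On simulated counts, 73.2% of genes changed 2-fold were recovered for mRNA with flg22 in mta (19534 genes), 55.0% for leaf Col-0 (18597) and 18.0% for GMUCT in mta (19017), and 89.5% of those changed 4-fold for the relative measure with flg22 in mta (17380). DESeq2 1.42.0, edgeR on reads, pseudocounts of 0.5 and 5, no filter, a replicate block and leaving out libraries were alternatives.

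Genes were named by fixed rules: the 10 highest, those at the limit, up to 4 members with the largest change that passed without overlap in 8 contrasts, the 5 with the strongest constant m6A peaks, and list members. Same-number replicates deviated together (every correlation over 0.1) in GMUCT of 35SALKBH10B with flg22 and without (0.101 to 0.258). They also did in leaf mta at 24 and 00 (0.196 to 0.401) and in leaf mta and Col-0 at 24 (0.284 to 0.459). The block moved no count of calls in these 3 comparisons by over 1.5 times. Leaf Col-0 at 24 and mta at 00 deviated together too (0.121 to 0.598), a pair that was not compared directly. Peak summits went to genes on the strand opposite to that of the list, which placed 99.1 to 99.9% of them. A class of name words is not reported here.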

Additional observations from a re-analysis of the deposited data

Results flagged for a closer look

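The change with flg22 in GMUCT of AGC2-1 differed between the lines, by 2.24 ± 0.52 (log2, 35SALKBH10B minus mta, SE, limma adjusted p = 0.039). It was positive under each of 17 alternatives (1.85 to 2.91), but the adjusted p was 0.05 or more under 12 of them. In leaves, the change from 00 to 24 in mta minus that in Col-0 was 3.33 ± 0.68 for AT1G33760 (edgeR adjusted p = 0.014), 2.28 ± 0.44 for TCH4 (0.01) and 2.06 ± 0.44 for AT3G23450 (0.017), and 0 of 15 alternatives ended these calls. It was 1.40 ± 0.37 for CRR1 (edgeR adjusted p = 0.038, lost in 8 of 15) and −0.59 ± 0.16 for AT1G20920 (edgeR adjusted p = 0.041, lost in 9 of 15). It was −3.71 ± 1.04 for AT3G28580 (edgeR adjusted p = 0.045, lost in 9 of 15) and −3.74 ± 0.99 for AT4G11320 (edgeR adjusted p = 0.038, lost in 10 of 15). Without replicate 1 of mta at 00 the differences of AT3G28580 and AT4G11320 were −2.12 and −1.83, with adjusted p of 0.097 and 0.14. These genes were examined because the rule named them, and the cause of the differences was not tested.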

How the results depend on the processing

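Values are percent of members that passed. The replicate block left all counts within 1.5 times except uncapped relative to mRNA with flg22 in mta, which gave 2.01 (main 3.02), where a pseudocount of 5 gave 10.1. With edgeR on recovered reads, GMUCT gave 29.0 (main 43.7) for flg22 in mta and 6.0 (main 3.02) for mta against Col-0 under flg22. Without the filter the latter gave 2.0, and its relative measure 6.0 (main 9.05). Leaving out 1 library gave 28.6 to 34.2 for GMUCT with flg22 in mta, 10.1 to 69.3 in 35SALKBH10B, 0.50 to 2.51 for mta against Col-0, 22.6 to 42.2 for 35SALKBH10B against Col-0, 0.50 to 3.52 and 3.02 to 17.6 for the relative measures (flg22 in mta, then mta against Col-0), 37.5 to 40.5 and 43.5 to 53.0 for seedling mRNA of the same pair, and in leaves 64.6 to 69.7 (Col-0), 56.6 to 64.6 (mta), 24.7 to 31.3 (at 00) and 19.7 to 28.8 (at 24). Peaks at q of 0.001 or less moved the members' lead over eligible loci from −2.23 to 3.25 points in leaf Col-0 at 00, 0.45 to 1.11 at 24, 8.74 to 11.2 in untreated Col-0 and 8.01 to 10.01 in untreated mta seedlings. In the contrasts that named them, genes kept their direction under all alternatives run and 15 calls were lost, besides those of the differences between lines or genotypes given above. Chosen after seeing the data: with CPM scaled by all features, 159 of 200 members and 10279 eligible loci remained.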
